A study of Rattus norvegicus with 12 samples.

Results

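Vim, Des, Pdgfra, Pdgfrb, Thy1 and S100a4 are 6 genes used to mark mesenchymal cells and hepatic stellate cells, and they were picked by these symbols from 22384 table lines that carry a gene symbol. The RNA came from rat hepatic progenitor cells (HPCs), immature liver cells that can form hepatocytes and bile duct cells, taken at gestation day 13.5. It was sequenced as 12 libraries in 6 groups of 2. One pair of groups was wild type, one was labelled Tnfrsf1α-/- and one Tnfrsf1β-/-, and within each pair one group was untreated and the other had 1 hour of TNFα, tumour necrosis factor alpha. The deleted genes encode the TNF receptors TNFR1 and TNFR2. How the labelled knockouts were made is not given in the sources used here. Nor is it said that replicate libraries stem from different animals or cultures, so p-values measure only a spread between libraries that may be technical. All levels below are log2(FPKM + 1), where FPKM is the number of fragments per kilobase of transcript in a library scaled to its mapped fragments. Group values are means ± SD with n = 2 libraries. In such bulk RNA, fewer cells of a type and less RNA per cell cannot be told apart.

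Stellate cells lie between the hepatocytes and the endothelium of the liver sinusoids, store vitamin A, and turn into matrix-secreting myofibroblasts after injury. Vimentin (Vim) and desmin (Des) are related intermediate filament proteins: vimentin fills most mesenchymal cells, while desmin is typical of muscle and, in rodent liver, of stellate cells. S100a4, also called fibroblast-specific protein, is a small calcium-binding protein that binds non-muscle myosin and is made by fibroblasts and by some leukocytes. Pdgfra and Pdgfrb are the receptor tyrosine kinases for platelet-derived growth factors, and signalling through the beta receptor drives stellate cells to divide. Thy1 is a surface glycoprotein held by a lipid anchor, found on fibroblasts, among them portal fibroblasts of the liver.

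The promoters of the 3 genes with measurable levels are shown because these genes moved together in wild type. Each run is the 250 bases before the RefSeq start of the gene in the rat assembly GRCr8, 5′ to 3′ on the gene's strand, with matches to a TATA box (TATAAA) or a GC box (GGGCGG), read on both strands, in capitals.
Vim, chr17:81577011-81577260, plus strand: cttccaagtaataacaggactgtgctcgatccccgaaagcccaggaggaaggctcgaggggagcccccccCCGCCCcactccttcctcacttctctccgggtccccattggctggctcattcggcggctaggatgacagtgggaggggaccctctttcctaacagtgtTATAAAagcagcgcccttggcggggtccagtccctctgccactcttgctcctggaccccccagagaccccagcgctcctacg
Des, chr9:84299376-84299625, plus strand: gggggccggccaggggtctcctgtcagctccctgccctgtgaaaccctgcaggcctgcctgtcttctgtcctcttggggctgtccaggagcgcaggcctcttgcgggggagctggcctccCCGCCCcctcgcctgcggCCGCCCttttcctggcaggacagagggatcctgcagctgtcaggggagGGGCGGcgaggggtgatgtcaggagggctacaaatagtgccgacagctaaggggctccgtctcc
S100a4, chr2:178388279-178388528, plus strand: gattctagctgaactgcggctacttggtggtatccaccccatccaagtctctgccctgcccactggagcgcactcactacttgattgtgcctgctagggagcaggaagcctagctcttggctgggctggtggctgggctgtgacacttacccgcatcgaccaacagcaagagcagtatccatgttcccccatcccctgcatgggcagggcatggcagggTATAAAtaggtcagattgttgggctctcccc
The Vim window had a TATA box 82 bases before the start and 1 GC box 180 bases before it, and a GC content of 62.4%. The Des window had no TATA box, 3 GC boxes at 130, 112 and 64 bases before the start, and a GC content of 68.8%. The S100a4 window had a TATA box 31 bases before the start, no GC box, and a GC content of 57.6%. Neither an AP-1 match (TGANTCA) nor a TEAD match (CATTCC) was in any of these 3 windows. Among 33469 rat promoters of this length 12.9% held the TATA letters, 30.5% the GC box, 6.34% the AP-1 letters and 12.1% the TEAD letters. Promoters of 4 of the 6 genes were in the RefSeq table used here, and that of Pdgfra had an AP-1 match 35 bases before its start.

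Some libraries went against their labels or their replicate. Libraries labelled Tnfrsf1α-/- did not have less Tnfrsf1a than wild type (5.65 to 6.13 in those 4, 5.15 to 5.65 in the 4 wild-type libraries). Tnfrsf1b was listed at 0 in all 4 Tnfrsf1β-/- libraries and also in both untreated wild-type ones. It was at 2.43 and 2.58 in treated wild type, and at 0 and 4.09 in the treated pair labelled Tnfrsf1α-/-. Both genotypes are used here as labels only. In the treated pair labelled Tnfrsf1α-/-, 1231 of 11860 tested genes were more than 2 log2 units apart (Spearman's rho 0.782 across genes), against 8 to 127 genes in the remaining pairs (rho 0.961 to 0.996). The 4 untreated libraries with a knockout label summed to 447554 to 472935 FPKM, the other 8 to 1071530 to 2085920. A gene was tested where its mean FPKM over the 12 libraries was at least 1. Of the 6 genes 3 passed, Vim (mean FPKM 1017), Des (41.5) and S100a4 (1987).

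Vimentin transcripts were abundant in 10 libraries and nearly lost in wild type with TNFα. The level of Vim was 10.57 and 10.73 in untreated wild type and 1.22 and 1.34 with TNFα. Under the label Tnfrsf1α-/- it was 9.79 and 9.89 untreated and 10.63 and 10.92 with TNFα, and in Tnfrsf1β-/- 9.93 and 9.95 untreated and 10.23 and 8.93 with TNFα. The treated wild-type pair lay below each of the other 10 libraries, which ran from 8.93 to 10.92. By level, Vim ranked 41 to 375 from the top among the table's lines in those 10, and 9861 and 10288 in treated wild type. It made up 0.0413% to 0.220% of total FPKM in the 10 libraries.

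Desmin followed the same split at a lower level. Des was at 6.04 and 6.28 in untreated wild type and at 1.33 and 1.34 with TNFα. The libraries labelled Tnfrsf1α-/- held 4.51 and 4.66 untreated and 5.95 and 6.45 with TNFα, and those of Tnfrsf1β-/- 4.33 and 4.26 untreated and 6.40 and 5.35 with TNFα. Treated wild type was again below all 10 others, and the 4 untreated knockout libraries lay between it and the remaining 6. In GRCr8 the Des locus overlaps 1 long non-coding RNA gene (LOC102550477), and whether fragments were counted by strand is not given in the sources used here, so part of the Des value may belong to that gene.

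S100a4 had the widest range of the 6. Untreated wild type had 10.79 and 11.71, and wild type with TNFα 0.58 and 1.02. Libraries labelled Tnfrsf1α-/- had 8.88 and 9.17 untreated and 9.75 and 13.06 with TNFα, while Tnfrsf1β-/- had 8.52 and 8.50 untreated and 11.96 and 11.80 with TNFα. The treated wild-type libraries stood below the other 10 without overlap, and replicate 2 under the label Tnfrsf1α-/- with TNFα was the highest of all. There S100a4 was 0.585% of total FPKM.

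The PDGF receptors and Thy1 were near or at 0. Pdgfra was listed at 0 in 7 libraries and at 0.12 or less in 4, with 2.28 in replicate 2 under the label Tnfrsf1α-/- with TNFα. Pdgfrb was at 0.08 and 0.16 in untreated wild type, at 0 in both treated wild-type libraries, at 0.15 and 0.29 and then 0.90 and 2.94 under the label Tnfrsf1α-/- without and with TNFα, and at 0.35 and 0.38 and then 0.02 and 0.04 in Tnfrsf1β-/-. The library with the highest level of both receptors was therefore the same one, and it also had the highest S100a4. Thy1 was listed at 0 in all 12 libraries, which can be a failed estimate. None of these 3 genes reached the mean FPKM for a test; the means were 0.334 for Pdgfra and 0.721 for Pdgfrb. With the filter left off, Pdgfrb was higher under the label Tnfrsf1α-/- with TNFα than in wild type with TNFα (1.92, SE 0.52, limma adjusted p = 0.0244), from 2 libraries at 0 against 0.90 and 2.94.

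**Figure D1:**
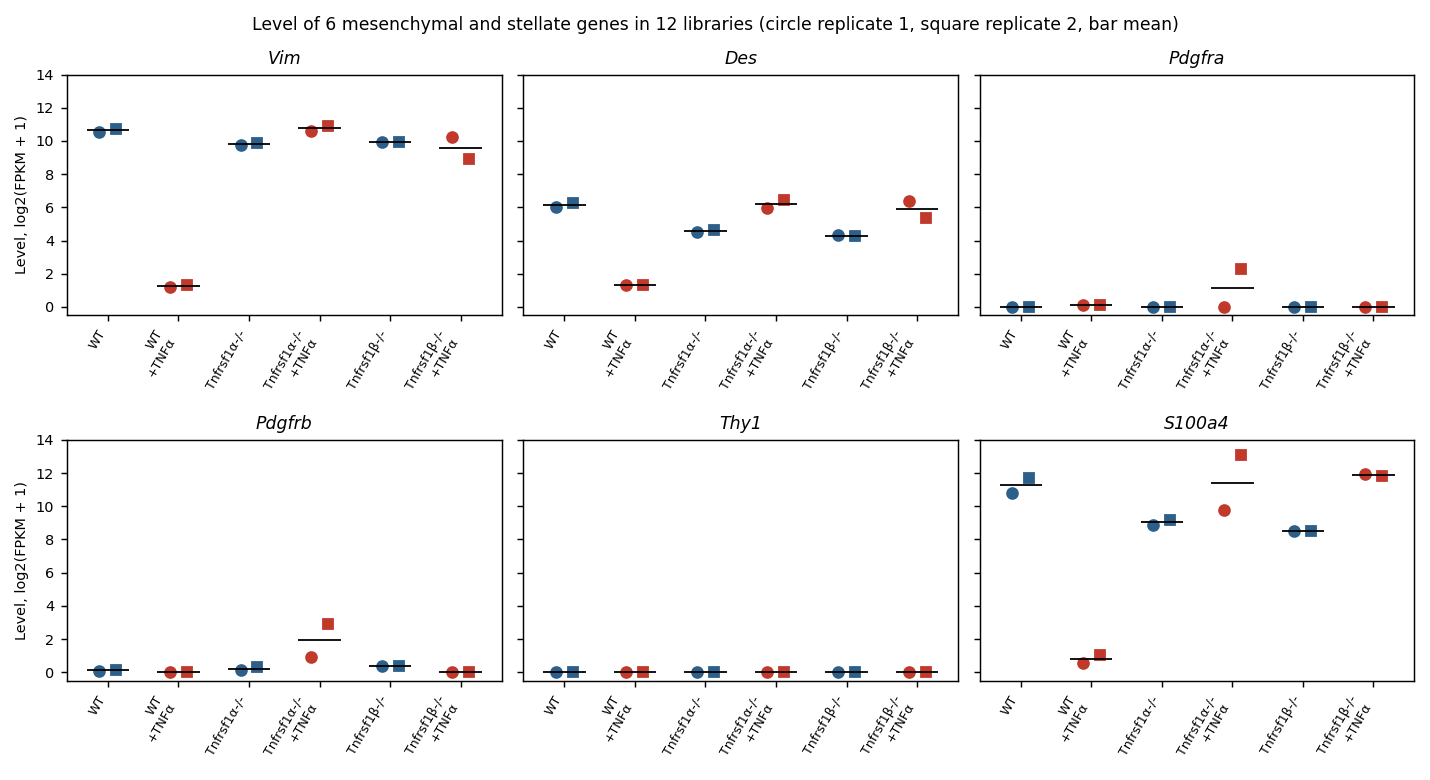
Level of each of the 6 genes, as log2(FPKM + 1), in the 12 libraries, grouped by genotype label and treatment; each point is 1 library. Vim, Des and S100a4 are low in the 2 wild-type libraries with TNFα (0.58 to 1.34) and at 4.26 to 13.06 in the other 10, while Pdgfra and Pdgfrb rise above 1 only in replicate 2 of the treated pair labelled Tnfrsf1α-/- and Thy1 is at 0 throughout.

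The name stellate cell was set against further markers of that cell. Lrat, which esterifies retinol in stellate cells, Hgf, the hepatocyte growth factor they secrete, the pericyte gene Rgs5 and the transcription factor gene Tcf21 were listed at 0 in all 12 libraries. As with Thy1, such zeros may be failed estimates. The neurotrophin receptor gene Ngfr did not exceed 0.84. Other genes of stellate cells and fibroblasts were present: outside treated wild type Hand2, a transcription factor gene of stellate precursors, was at 4.52 to 6.34, the transcription factor gene Lhx2 at 1.06 to 2.48, the collagen gene Col1a1 at 6.14 to 10.62, the collagen cross-linking enzyme gene Lox at 3.86 to 9.13 and the matrix gene Sparc at 9.68 to 11.96. Treated wild type lay below the ranges of Hand2, Lhx2 and Sparc but inside those of Col1a1 and Lox. These 10 genes were singled out after their values were seen, from 35 listed stellate and fibroblast genes in the table. Of the 35, 25 reached 1 in at least 1 library, 10 stayed under 1, and 4 of those 10 were at 0 throughout. The markers thus gave a mixed answer on the name, and the 6 genes are called by their symbols below. Among 5 listed mesothelial genes, Msln (mesothelin), Upk3b (a uroplakin) and Wt1 (a transcription factor) were present in untreated wild type. Msln was at 9.09 and 9.07 there, Wt1 at 4.26 and 3.34, and Upk3b at a mean of 8.58. In wild type with TNFα, Msln was at 2.59 and 2.62, Wt1 at 0 in both libraries and Upk3b at a mean of 2.41. The Upk3b difference did not pass (limma adjusted p = 0.0549). The remaining genes went otherwise: Gpm6a had means of 1.09 untreated and 1.44 with TNFα, and the keratin gene Krt19 had 0 and 4.81. Replicate 2 under the label Tnfrsf1α-/- with TNFα had Vim at 10.92, Wt1 at 0.13 and Upk3b at 0.32, while Msln was at 6.49. For each of these 3 mesothelial genes this was the lowest level outside treated wild type. The part of these mesothelial genes in the results was not tested.

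Of the comparisons of TNFα with no treatment, that in wild type had the largest differences for these genes. Vim fell by 9.37 log2 units (SE 0.36, 95% interval -10.18 to -8.55, limma adjusted p = 6.31e-08). Des fell by 4.83 (SE 0.33, adjusted p = 4.07e-06) and S100a4 fell by 10.45 (SE 0.86, adjusted p = 1.52e-05). All 3 tested genes were called lower, where 15.3% of all tested genes were called lower, 31.9% higher and 47.2% in either direction. The 3 passed the expression filter through the 10 other libraries, so the count is no support of its own. Each treated library lay below each untreated one for these 3, as did 30.3% of all tested genes. The median of all genes moved by 0.32, and 67.6% of calls were higher, against 49.2% after median-ratio scaling.

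Under the label Tnfrsf1α-/- 1 of the 3 genes passed with the same treatment. Des rose by 1.61 (SE 0.33, adjusted p = 0.0123). Vim differed by 0.93 (SE 0.36, adjusted p = 0.0976) and S100a4 by 2.38 (SE 0.86, adjusted p = 0.0848), neither of which passed. The treated libraries were above the untreated ones for all 3 genes, a separation that 29.6% of all tested genes had in this direction and 62.2% in either. That 1 of 3 was called higher stood against 9.81% of tested genes called higher, 7.50% lower and 17.3% in either direction. Of all calls 56.7% were higher, against 34.8% after quantile normalization. The call of Des did not hold in a fit of these 2 groups alone (adjusted p = 0.0944) and without untreated replicate 1 (adjusted p = 0.1) or 2 (adjusted p = 0.0644). Without treated replicate 1, S100a4 passed (4.03, adjusted p = 3.25e-05). Without replicate 1 or 2 of treated Tnfrsf1β-/-, which changes only the shared spread, Vim passed (adjusted p = 0.00946 and 0.0095). After quantile normalization Vim was lower with TNFα instead (-1.19, adjusted p = 0.0268).

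Under the label Tnfrsf1β-/- S100a4 and Des were higher with TNFα. S100a4 rose by 3.37 (SE 0.86, adjusted p = 0.00902) and Des by 1.58 (SE 0.33, adjusted p = 0.00365), and both treated libraries were above both untreated ones for each gene, as for 26.6% of all tested genes. Vim was at 10.23 and 8.93 with TNFα and at 9.93 and 9.95 without, so the groups overlapped (difference -0.36, SE 0.36, 95% interval -1.17 to 0.45, adjusted p = 0.411). The 2 genes called higher stood against 17.6% of tested genes called higher, 42.9% lower and 60.5% either way. The sign of the Vim difference turned after median-ratio scaling (0.42, adjusted p = 0.322) and without treated replicate 2 (0.29, adjusted p = 0.276), while it passed as lower without treated replicate 1 (-1.01, adjusted p = 0.00536) and after quantile normalization (-2.19, adjusted p = 0.000939). S100a4 lost its call after quantile normalization (1.45, adjusted p = 0.147). The median of all genes was -0.66 in this comparison and 29.1% of calls were higher, against 49.9% after median-ratio scaling.

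Whether TNFα acted differently between genotypes was tested as a difference of responses. Relative to wild type, the response under the label Tnfrsf1α-/- was higher by 10.30 for Vim (SE 0.50, adjusted p = 6.59e-07), by 6.44 for Des (SE 0.46, adjusted p = 9.63e-06) and by 12.83 for S100a4 (SE 1.21, adjusted p = 6.37e-05). In Tnfrsf1β-/- it was higher by 9.0 for Vim (SE 0.50, adjusted p = 1.18e-06), by 6.40 for Des (SE 0.46, adjusted p = 7.4e-06) and by 13.82 for S100a4 (SE 1.21, adjusted p = 2.6e-05). All 3 genes passed in both tests, where 12.8% and 17.3% of tested genes were called higher, 22.0% and 47.3% lower, and 34.8% and 64.5% in either direction. Since the 3 passed the expression filter through the libraries other than treated wild type, these counts are no support of their own. The median of all genes was -0.44 and -1.11, and 36.9% and 26.8% of calls were higher, against 51.6% and 49.7% after median-ratio scaling. Both tests use the same wild-type libraries and so are not independent of each other or of the wild-type comparison.

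**Figure D2:**
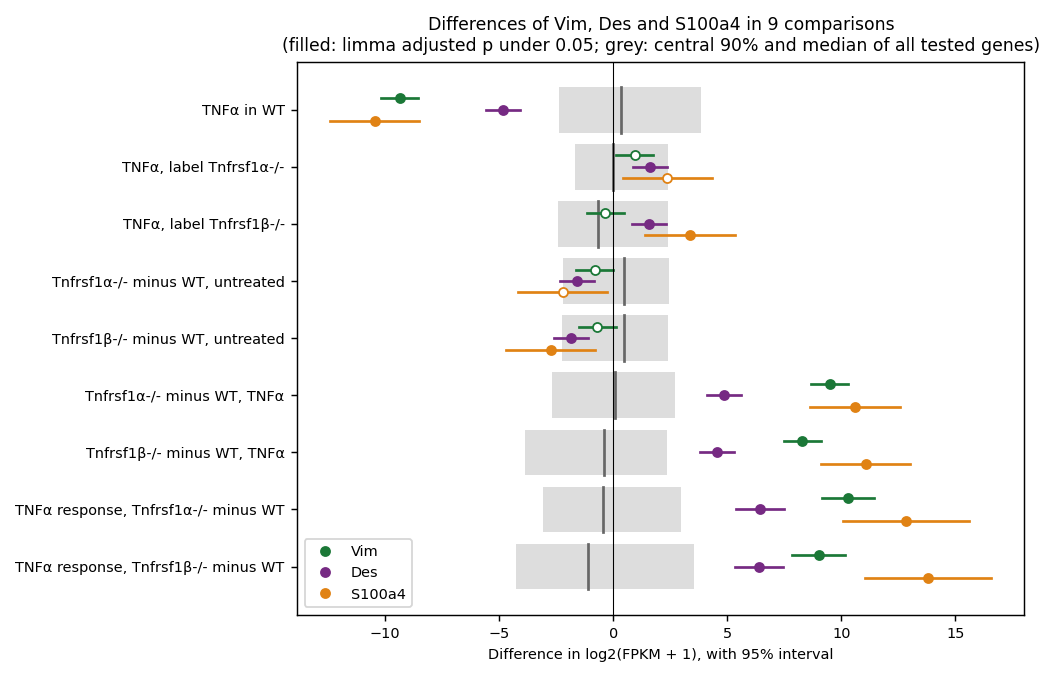
Log2 change of Vim, Des and S100a4 in the comparisons, each with its 95% interval from limma; filled points passed at an adjusted p under 0.05, and grey bars span the central 90% of all tested genes with their median. Vim and S100a4 lie at -9.37 and -10.45 for TNFα in wild type, and the knockout labels have differences between -0.36 and 3.37 for TNFα.

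Without TNFα, Des was lower in both knockout labels than in wild type, and S100a4 was lower in Tnfrsf1β-/-. The log2 difference of Des was -1.58 under the label Tnfrsf1α-/- (SE 0.33, adjusted p = 0.00425) and -1.86 in Tnfrsf1β-/- (SE 0.33, adjusted p = 0.00205), and both passed. S100a4 differed by -2.23 (SE 0.86, adjusted p = 0.055) and -2.74 (SE 0.86, adjusted p = 0.0249), of which the second passed. Vim differed by -0.81 (SE 0.36, adjusted p = 0.0862) and -0.71 (SE 0.36, adjusted p = 0.124), and neither passed. The untreated knockout libraries were below both wild-type ones for all 3 genes, Vim included, which 27.3% and 28.5% of all tested genes also were. In each comparison most tested genes did not overlap in either direction. The counts of 1 and 2 genes called lower stood against 17.0% and 17.5% of tested genes called lower, 36.7% and 36.9% higher, and 53.7% and 54.4% either way. The untreated wild-type libraries are shared by both comparisons.

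These untreated differences depended on how the libraries were scaled. The median of all genes was 0.48 and 0.47 higher in the knockout labels, and 68.3% and 67.8% of calls were higher, against 52.0% and 52.5% after median-ratio scaling. That scaling gave Vim at -1.36 (adjusted p = 0.00968) and -1.25 (adjusted p = 0.0141) and S100a4 under the label Tnfrsf1α-/- at an adjusted p of 0.0344. Quantile normalization turned Vim to 1.02 (adjusted p = 0.03) and 1.28 (adjusted p = 0.0122) and left S100a4 in Tnfrsf1β-/- at -0.93 (adjusted p = 0.347). The S100a4 call in Tnfrsf1β-/- was also lost without wild-type replicate 2 (adjusted p = 0.146) and without untreated replicate 1 or 2 of Tnfrsf1β-/- (adjusted p = 0.0883 and 0.0918). Under the label Tnfrsf1α-/-, S100a4 passed without both treated libraries of that label (adjusted p = 0.000248), without either of them (0.000258 and 0.000244), and with only the groups compared (0.0173). Vim passed as lower with only the groups compared (adjusted p = 0.04 and 0.0346) and without replicate 1 (0.00577 and 0.00949) or 2 (0.00579 and 0.00952) of treated Tnfrsf1β-/-, which change only the shared spread.

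With TNFα, all 3 genes were higher in both knockout labels than in wild type. Vim was higher by 9.49 (SE 0.36, adjusted p = 7.96e-08) under the label Tnfrsf1α-/- and by 8.30 (SE 0.36, adjusted p = 1.42e-07) in Tnfrsf1β-/-. Des was higher by 4.86 and 4.54 (adjusted p = 5.63e-06 and 6.26e-06), and S100a4 by 10.60 and 11.08 (adjusted p = 1.97e-05 and 9.93e-06). Every treated knockout library was above both treated wild-type libraries for each gene, as for 36.3% and 29.9% of all tested genes. These 3 of 3 stood against 22.7% and 14.7% of tested genes called higher, 22.4% and 36.3% lower, and 45.2% and 51.0% either way. As the 3 passed the expression filter through the libraries other than treated wild type, the count is no support of its own. For Tnfrsf1β-/- the median of all genes was -0.41, and 28.8% of calls were higher, against 54.9% after median-ratio scaling.

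The groups were also ordered by mean level. For Vim the order from the top was treated Tnfrsf1α-/- by label (10.77 ± 0.21), untreated wild type (10.65 ± 0.11), untreated Tnfrsf1β-/- (9.94 ± 0.01), the untreated label Tnfrsf1α-/- (9.84 ± 0.08), Tnfrsf1β-/- with TNFα (9.58 ± 0.92) and wild type with TNFα (1.28 ± 0.08). Neighbours in this order overlapped at the top and again between the untreated label Tnfrsf1α-/- and treated Tnfrsf1β-/-. For Des, the treated label Tnfrsf1α-/- (6.20 ± 0.35), wild type without TNFα (6.16 ± 0.17) and Tnfrsf1β-/- with TNFα (5.87 ± 0.75) overlapped at the top. S100a4 had the same 3 groups at the top, in the order treated Tnfrsf1β-/- (11.88 ± 0.12), the treated label Tnfrsf1α-/- (11.40 ± 2.34) and untreated wild type (11.25 ± 0.65). The widely split treated pair labelled Tnfrsf1α-/- overlapped both of the others, while treated Tnfrsf1β-/- (11.80 to 11.96) lay above untreated wild type (10.79 to 11.71). Both genes came next in the untreated label Tnfrsf1α-/- (4.58 ± 0.10 and 9.03 ± 0.21), then in untreated Tnfrsf1β-/- (4.30 ± 0.05 and 8.51 ± 0.02), and last in treated wild type (1.33 ± 0.01 and 0.80 ± 0.31).

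Within a library the 3 genes did not keep a fixed distance. The Vim level exceeded the Des level by 4.52 and 4.45 in untreated wild type, by 5.28 and 5.24 and by 5.60 and 5.68 in the untreated labels Tnfrsf1α-/- and Tnfrsf1β-/-, by 4.68 and 4.47 in treated Tnfrsf1α-/-, and by 3.83 and 3.58 in treated Tnfrsf1β-/-. In treated wild type, where both were near the floor of the scale, the differences were -0.10 and -0.00. Vim was above S100a4 in the 4 untreated knockout libraries, by 0.72 to 1.45, and in treated wild type, by 0.64 and 0.32. It was below S100a4 in both untreated wild-type libraries (-0.22 and -0.99) and both treated Tnfrsf1β-/- libraries (-1.73 and -2.87). The treated pair labelled Tnfrsf1α-/- split, with 0.88 and -2.14. These are descriptions over 12 libraries with no test.

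**Figure D3:**
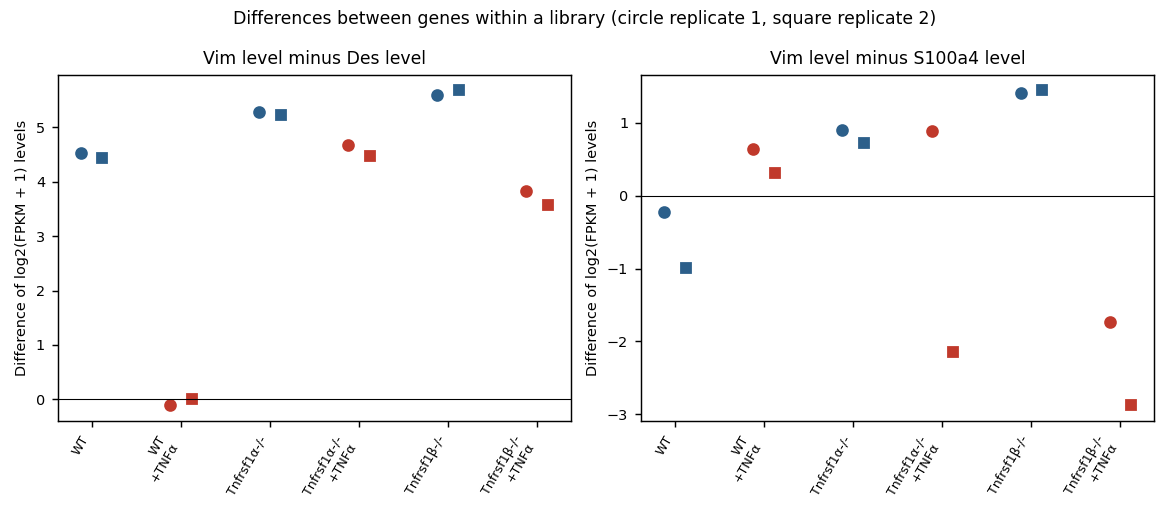
Difference of the log2(FPKM + 1) levels of Vim and Des (left) and of Vim and S100a4 (right) within each library; circles are replicate 1, squares replicate 2, blue untreated and red with TNFα. Vim minus Des lies between 3.58 and 5.68 outside treated wild type, and Vim minus S100a4 changes sign between the untreated knockout libraries and the treated Tnfrsf1β-/- ones.

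The other stellate and fibroblast genes changed in both directions in wild type with TNFα. Of 23 tested 13 fell and 5 rose, with a median of -1.94 against 0.32 over all tested genes, of which 15.3% fell and 31.9% rose. Sparc, a secreted matrix-binding protein, fell by 9.98 (SE 0.60, adjusted p = 1.66e-06) in the same libraries as Vim. Mcam, an adhesion molecule of smooth muscle and pericytes, rose by 6.03 and the smooth muscle protein gene Tagln by 3.28. Of the listed genes 12 of 35 had a mean FPKM below 1. After quantile normalization 13 fell and 3 rose.

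In the knockout labels these genes also changed in both directions with TNFα. Of the 23, 3 rose and 1 fell under the label Tnfrsf1α-/- (median -0.45, all genes -0.02), where 17.3% of all tested genes were called. In Tnfrsf1β-/- 3 rose and 4 fell (median -0.65, all genes -0.66), where 60.5% were called. Whether these counts differ from those in wild type was not tested. Nt5e, an ectonucleotidase found on mesenchymal cells, went from 0.63 to 11.80 and from 0.59 to 8.69 (group means), and the matrix proteoglycan gene Dcn rose by 3.33 and 2.56. Col1a1, the main fibrillar collagen chain, fell by 3.31 and by 2.22. Mcam rose by 7.54 under the label Tnfrsf1α-/- and fell by 1.84 in Tnfrsf1β-/-. Leaving out treated replicate 1 of the first label gave 9 higher and 12 lower, leaving out replicate 2 gave 5 and 4, and quantile normalization gave 3 and 9. In the fit without that replicate 1, 5 rose and 15 fell in wild type. In Tnfrsf1β-/- 4 rose and 11 fell without both treated libraries labelled Tnfrsf1α-/-.

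The treated pair labelled Tnfrsf1α-/- split on this list. Of the 23 tested genes 13 differed by over 2 log2 units between its replicates and none did in any other pair. Replicate 1 had Acta2, the smooth muscle actin of myofibroblasts, at 8.55, Eln (elastin) at 11.31 and Fbln2 (a matrix fibulin) at 7.13, where replicate 2 had 0.26, 0.49 and 0.03. Replicate 2 had Cspg4, the pericyte proteoglycan, at 4.74 and the collagen gene Col6a1 at 7.02, where replicate 1 had 0.06 and 0.57. These 5 were chosen after their values were seen. Vim (10.63 and 10.92) and Des (5.95 and 6.45) were close in the same pair, while S100a4, Pdgfra and Pdgfrb were higher in replicate 2, as Cspg4 was.

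**Figure D4:**
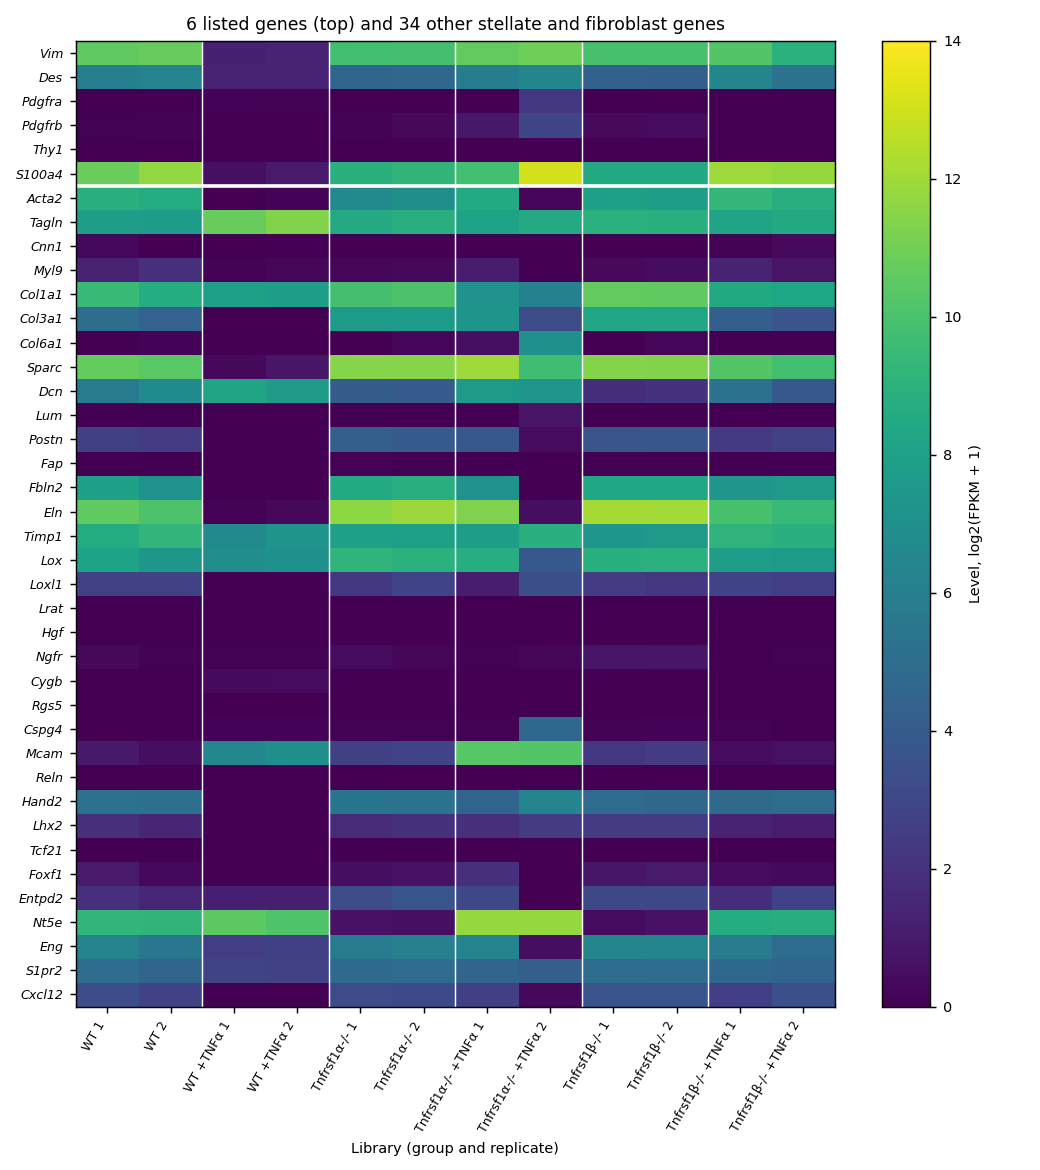
Levels, as log2(FPKM + 1), of the 6 genes and other stellate and fibroblast genes in the 12 libraries; brighter cells are higher. Acta2, Eln and Fbln2 are near 0 in wild type with TNFα and in replicate 2 of the treated pair labelled Tnfrsf1α-/-, while Vim and Des stay high in the latter.

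Without TNFα, the knockout labels had 3 of the 23 higher and 2 lower (Tnfrsf1α-/-) and 5 higher and 3 lower (Tnfrsf1β-/-) than wild type, with medians of 0.18 and 0.67 against 0.48 and 0.47 over all genes. Of all tested genes 36.7% and 36.9% were called higher there, and 17.0% and 17.5% lower. Nt5e differed by -8.55 and -8.59, in the direction of Des, and Dcn by -2.13 and -4.28, all called. Mcam was higher by 2.01 and 1.62. Tagln was higher by 0.89 and 1.15, a call lost after median-ratio scaling (adjusted p = 0.432 and 0.155). Without both treated libraries labelled Tnfrsf1α-/- the counts were 10 higher and 4 lower, and 11 higher and 5 lower. With TNFα, 9 of 23 were higher and 3 lower under the label Tnfrsf1α-/- than in wild type, and 12 higher and 5 lower in Tnfrsf1β-/-. The first of these counts was 11 higher and 6 lower without treated replicate 1 of that label, with the median moving from 2.08 to 0.38, and 18 higher and 2 lower without replicate 2. With all libraries, 22.7% and 14.7% of all tested genes were called higher in these treated comparisons, and 22.4% and 36.3% lower. Hand2 was at 0 in both treated wild-type libraries and at 4.52 and 6.34 in the treated pair labelled Tnfrsf1α-/-.

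PDGF ligands, which act on the 2 PDGF receptors, and signalling partners of the receptors made a list of 23 genes, of which Pdgfd, a ligand of the beta receptor, and Plau, a protease that can activate it, were listed at 0 in all 12 libraries. Of 21 tested genes 4 rose and 4 fell with TNFα in wild type (median -0.25, all genes 0.32; 3 and 6 after median-ratio scaling), 1 rose and 2 fell under the label Tnfrsf1α-/- (3 and 9 without treated replicate 1), and none rose and 12 fell in Tnfrsf1β-/- (median -1.75, all genes -0.66; none and 17 without either treated library labelled Tnfrsf1α-/-), where 42.9% of all tested genes fell. The shares of all tested genes were 31.9% higher and 15.3% lower in wild type, and 9.81% and 7.50% under the label Tnfrsf1α-/-. In Tnfrsf1β-/- 17.6% were higher. Pdgfa, a ligand of the alpha receptor, was at 2.14 to 4.24 in the 12 libraries, and Pdgfb, a ligand of both, at 0 to 2.19. Pdgfd, Plau, Pdgfa and Pdgfb were named after their values were seen. Pdgfrl, a receptor-like protein without a kinase, rose by 8.16 in wild type (SE 0.79, adjusted p = 4.89e-05). In untreated libraries 10 and 11 of the 21 were higher in the knockout labels than in wild type and none was lower, with Lrp1, a co-receptor of the beta receptor, up by 2.26 and 2.80 and the kinase subunit gene Pik3ca up by 2.0 and 1.93. Over all tested genes 36.7% and 36.9% were called higher in these comparisons, and 17.0% and 17.5% lower. The counts of higher genes were 9 and 9 under median-ratio scaling, 11 and 12 under quantile normalization, and 15 and 15 without either treated library labelled Tnfrsf1α-/-. Pdgfrb itself had 0.15 to 0.38 in those 4 libraries and 0.08 and 0.16 in wild type.

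Genes for filament partners of vimentin and desmin included some that moved with Des and some that did not. Of 12 tested 5 fell and 3 rose with TNFα in wild type (median -0.64), and 7 fell and 1 rose after median-ratio scaling (median -1.10) and after quantile normalization (median -1.11). With the scaling as deposited, 15.3% of all tested genes fell there and 31.9% rose, with a median of 0.32. Hspb1, a small heat shock protein, fell by 5.35, Prph, a neuronal relative of vimentin, fell by 4.63, and Cryab, a chaperone of desmin, fell by 2.25. The nuclear lamin gene Lmna was at 15.34 and 15.11 in untreated wild type and at 7.41 to 7.78 in the 4 untreated knockout libraries (-7.75 and -7.46, adjusted p = 1.22e-07 and 1.69e-07), and it was at 13.27 to 14.51 in all 6 treated libraries. The cytoskeletal linker gene Macf1 and the lamin gene Lmnb1 were also lower than wild type there, at -5.48 and -5.35 for Macf1 and -4.99 and -4.38 for Lmnb1. Des differed by -1.58 and -1.86 in those comparisons. With TNFα 4 of 12 rose and none fell under the label Tnfrsf1α-/- (4 and 4 without treated replicate 1) and 4 rose and 3 fell in Tnfrsf1β-/- (5 and 6 without either treated library labelled Tnfrsf1α-/-). Among all tested genes 9.81% and 17.6% rose in these comparisons, and 7.50% and 42.9% fell. The untreated knockout labels had 1 and 3 higher and 4 and 4 lower, and leaving out either of those treated libraries gave 6 higher and 5 lower in both comparisons. With all libraries in the fit, 36.7% and 36.9% of all tested genes were higher there and 17.0% and 17.5% lower.

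The S100 list, which joins calcium-binding relatives of S100a4 with a few binding partners, had 4 of 12 tested genes lower and 1 higher with TNFα in wild type (median -1.68; 7 lower and 2 higher without either treated library labelled Tnfrsf1α-/-). Among all tested genes 15.3% were lower and 31.9% higher in this comparison, with a median of 0.32. S100a6 was at 14.42 and 14.94 untreated and at 4.55 and 4.80 with TNFα (-10.01, adjusted p = 1e-07), and S100a10 and S100a11 fell by 4.87 and 4.71. S100b, the glial member, passed as higher, from a listed 0 in each untreated library to a mean of 4.82; it was at 0.27 or less outside treated wild type and was tested only because of its level there. In Tnfrsf1β-/- 4 rose and 2 fell with TNFα (7 and 2 without either treated library labelled Tnfrsf1α-/-), among them S100a6 (up by 4.68), S100a10 (2.54) and S100a11 (2.19); the last pair lost their calls after quantile normalization (adjusted p = 0.167 and 1). Under the label Tnfrsf1α-/- 1 rose and none fell (7 and 2 without treated replicate 1, none and 4 after quantile normalization). The gene that rose was S100a6, by 1.83, a value that became -0.56 after quantile normalization (adjusted p = 0.158). For TNFα in Tnfrsf1β-/- 17.6% of all tested genes rose and 42.9% fell, and under the label Tnfrsf1α-/- 9.81% and 7.50%. In the untreated knockout labels S100a6 differed by -3.96 and -4.11, and S100a4 by -2.23 and -2.74. Each of these untreated comparisons had 2 genes higher and 4 lower (3 and 2 after quantile normalization, 2 and 7 without either treated library labelled Tnfrsf1α-/-), with medians of -1.35 and -1.38. All tested genes had medians of 0.48 and 0.47, with 36.7% and 36.9% higher and 17.0% and 17.5% lower. Reads shared between close family members could not be checked, so values of single S100 genes carry that uncertainty.

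Surface and signalling partners of Thy1 were expressed although Thy1 was listed at 0. Of 12 tested 6 rose and 2 fell with TNFα in wild type (6 and 4 after median-ratio scaling), 3 rose and 2 fell under the label Tnfrsf1α-/- (6 and 4 without treated replicate 1), and 1 rose and 5 fell in Tnfrsf1β-/-. The shares of all tested genes in these comparisons were 31.9%, 9.81% and 17.6% higher and 15.3%, 7.50% and 42.9% lower. Whether the counts differ from these shares was not tested. Itgb5, an integrin chain that binds matrix proteins, rose by 5.43 in wild type and by 7.95 under the label Tnfrsf1α-/-. Alcam, an adhesion molecule, rose by 2.37, 7.47 and 3.45 in the 3 genotypes, and the kinase gene Fyn by 3.81 and 2.96 in the first pair but fell by 2.21 in Tnfrsf1β-/-. The untreated knockout labels had 5 and 4 genes higher and 2 lower in each, and 7 higher and 3 lower in each without either treated library labelled Tnfrsf1α-/-. Here 36.7% and 36.9% of all tested genes were called higher, and 17.0% and 17.5% lower.

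The libraries with little Vim, Des and S100a4 were those with high levels of most listed hepatocyte genes. The summed level of the 6 genes, as log2 of their total FPKM plus 1, was 2.15 and 2.37 in wild type with TNFα and 10.41 to 13.37 in the other 10. That of 9 hepatocyte genes was 12.20 and 12.25 in wild type with TNFα and 3.32 to 4.78 elsewhere, and all 8 that were tested rose there, most of which passed the expression filter through those libraries alone. Alb, serum albumin, was at 10.01 and 9.92 in those 2 libraries, at 0.20 and 0.27 in the treated pair labelled Tnfrsf1α-/- and at 0 in the other 8. Tf, also on the hepatocyte list, was present in all libraries, at 3.27 to 4.75 outside treated wild type. Of 9 tested progenitor and cholangiocyte genes 7 rose with TNFα in wild type. In that comparison 31.9% of all tested genes were called higher and 15.3% lower. Cd24, Epcam, Krt18 and Krt19 were at 0.46 or less in the other 10 libraries and so passed the filter through treated wild type alone, which fixed their direction. Untreated wild type held other genes of this list, with means of 13.65 for Krt7, 8.59 for Krt8, 5.49 for Sox9 and 3.58 for Cdh1. Without TNFα, Krt7 differed from wild type by -5.78 (label Tnfrsf1α-/-) and -5.99 (Tnfrsf1β-/-), and Sox9 by -5.23 and -5.46. With TNFα, Krt7 means went from 7.87 to 14.87 and from 7.66 to 13.7 in these labels. Sox9 rose by 9.26 and 5.96. Cdh1 moved the same way in each comparison, and Krt8 passed in none of them. Krt18, an epithelial keratin, was at 0 in untreated wild type and at a mean of 9.74 with TNFα. Of 5 mesothelial genes 2 fell and 1 rose with TNFα in wild type, against the same shares of all tested genes. The endothelial marker Kdr was listed at 0 in all 12 libraries and the leukocyte marker Ptprc in 11, with 0.0041 in the remaining one. Of 5 endothelial genes 4 stayed under 1, and of 5 leukocyte and macrophage genes 3 did. The others were present: Cd14 was at 3.67 to 5.65 and Cd68 at 0.42 to 4.09 in the 12 libraries. Endothelial Tek had means of 2.37 and 2.32 in the untreated labels Tnfrsf1α-/- and Tnfrsf1β-/-. In untreated wild type it was at 0.26 (limma adjusted p = 3.87e-05 and 4.39e-05). The part of these cell type markers in the levels of Vim, Des and S100a4 was not tested, and treatment and library make-up cannot be told apart in wild type, where each group has 2 libraries.

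**Figure D5:**
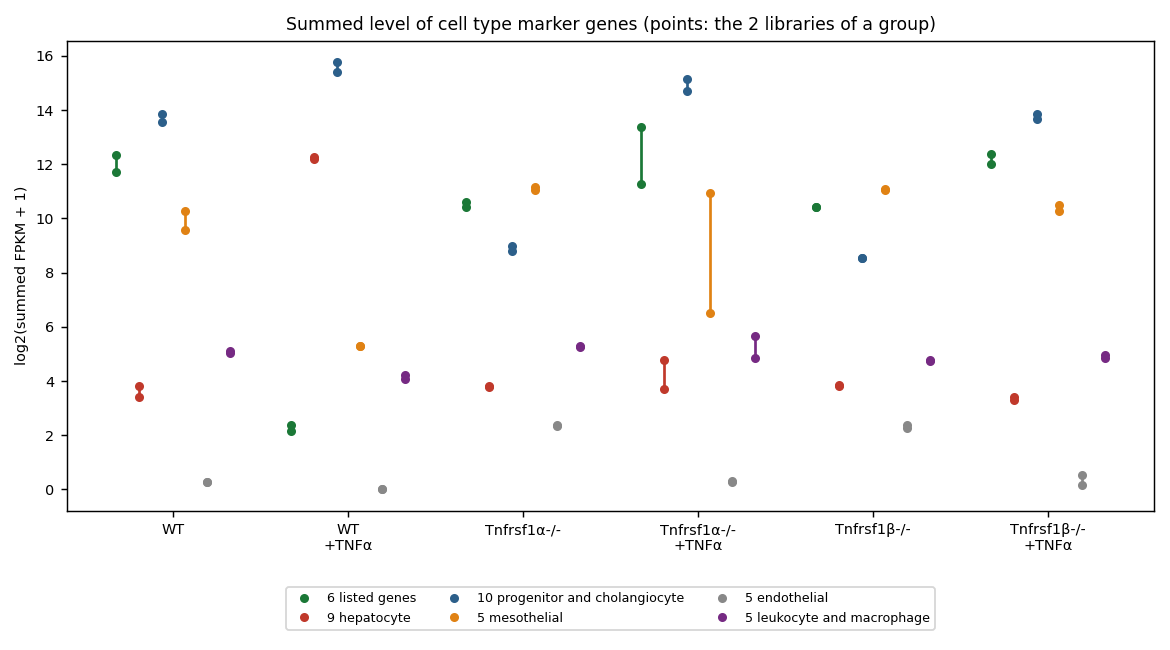
Summed level of each marker list, as log2 of the total FPKM plus 1, in each group; each point is 1 library. The 6 genes are at 2.15 and 2.37 in wild type with TNFα, where the hepatocyte list is at 12.20 and 12.25.

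Genes most like each of the 6 in pattern were named by the root mean square difference over the 12 libraries after each gene was centred on its mean. For Vim these were Serpinh1 (0.70), a collagen chaperone, Emp1 (0.71), an epithelial membrane protein, and Anxa1 (0.74), a phospholipid-binding annexin. For Des they were Fam127b (0.45), Emp3 (0.47), and Igfbp7 (0.50), a secreted binding protein. For S100a4 they were Cst3 (0.93), a protease inhibitor, Prkcdbp (1.04), a caveola protein, and S100a6 (1.09). The nearest genes to Pdgfrb were Cln3 (0.20), RGD1309540 (0.23) and Hapln4 (0.26), and to Pdgfra Cant1 (0.22), Hpcal1 (0.23) and Scfd2 (0.25), where most of the values compared are close to each gene's mean. These distances describe 12 libraries, and depth and composition are shared by all genes of a library.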

How the data were processed

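Total RNA of rat HPCs was made into RNA-seq libraries with an Illumina TruSeq kit, per the labels' protocols. The authors deposited 1 table of log2 values with 22730 lines, 346 of them without a symbol. The log2(FPKM + 1) scale was inferred from the values (0 to 16.8). The sources used here do not name aligner, build or quantification tool, read depth is unknown, and scaling between libraries is as deposited. Another log base would change every fold, the FPKM values and sums, and which lines pass the filter. Adjusted p-values and shares of genes called could change with them. The order of libraries within a gene would stay.

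Columns were matched to samples by their descriptions. The 12 libraries were fitted with 6 group means in limma 3.58.1 in R 4.3.3 (trended empirical Bayes) on 11860 lines with a mean FPKM of at least 1, with a pseudocount of 1. Tests were two-sided, in 9 contrasts, with Benjamini-Hochberg adjustment and a threshold of 0.05; every adjusted p is from limma. Small levels have folds understated by the pseudocount. The fit was tested on simulated data. Of the tested symbols 10450 (88.1%) are in RefSeq GRCr8, used for names and promoters only. The 6 genes and the lists were chosen with earlier results of these data known. Named list genes are up to 4 with the smallest p in a comparison, and markers listed first for their cell type; others are said to be chosen after their values were seen. 1 listed gene is counted but not reported here by name. Alternatives were the pseudocount, filter, scaling, samples in the fit, replicate block and left-out libraries.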

Additional observations from a re-analysis of the deposited data

Results flagged for a closer look

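The response of 3 genes to TNFα differed between wild type and each knockout label by a test of the difference itself. Vim differed by 10.30 (SE 0.50, limma adjusted p = 6.59e-07) under the label Tnfrsf1α-/- and by 9.0 (SE 0.50, adjusted p = 1.18e-06) in Tnfrsf1β-/-. Des differed by 6.44 and 6.40, and S100a4 by 12.83 and 13.82. Each value joins a wild-type change of -9.37 for Vim, -4.83 for Des and -10.45 for S100a4 with a change within the label, which was 0.93, 1.61 and 2.38 for Tnfrsf1α-/- and -0.36, 1.58 and 3.37 for Tnfrsf1β-/-. The hepatocyte marker sum of the wild-type libraries with TNFα was 12.20 and 12.25 against 3.32 to 4.78 elsewhere; its part in the result was not tested.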

How the results depend on the processing

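Of 513 values of single genes under alternatives, 481 kept their direction and side of the threshold, 19 gained a call, 8 lost one and 5 turned sign. The 5 were Vim: -1.19 for TNFα under the label Tnfrsf1α-/-, 1.02 and 1.28 for the untreated labels Tnfrsf1α-/- and Tnfrsf1β-/- against wild type (each with quantile normalization), and 0.42 (median-ratio scaling) and 0.29 (without treated replicate 2, against -1.01 without treated replicate 1) for TNFα in Tnfrsf1β-/-. The cause was not tested. The number of genes called stayed at 3 of 3 in treated wild type against untreated, in both differences of response and in both treated comparisons with wild type (4 of the 6 without the filter for the label Tnfrsf1α-/-). For TNFα under the label Tnfrsf1α-/- (1) it was 2 with quantile normalization, 0 with only the groups compared and 0 to 2 with 1 library left out. For the untreated label Tnfrsf1α-/- against wild type (1) it was 3 with median-ratio scaling, 2 with quantile normalization, 3 with only the groups compared, 2 without both treated libraries labelled Tnfrsf1α-/-, and 1 to 2 with 1 library left out. For untreated Tnfrsf1β-/- (2) it was 1 to 3, and for TNFα in Tnfrsf1β-/- (2) it was 2 to 3, with 1 library left out. Over all genes, calls for TNFα under the label Tnfrsf1α-/- were 2052, 570 with only the groups compared, 3789 with quantile normalization and 750 to 7001 with 1 library left out; the treated label against wild type had 5356, 2111 with only the groups compared, and its difference of response 4127, 2751 with only the groups compared. The replicate block gave 2 called genes in place of 1 for the untreated label Tnfrsf1α-/- against wild type (S100a4, adjusted p = 0.0377) and changed no other count; same-numbered libraries deviated together in 9 of 15 pairs of groups only (correlation -0.17 to 0.24), so the numbers were not taken to pair the libraries. Depth is unknown, and 2 libraries a group limit every comparison.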
